A study of Harpegnathos saltator with 32 samples.

Results

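Opsins are the light-sensing receptors of photoreceptor cells: a G protein-coupled receptor protein that holds a retinal chromophore and starts phototransduction when light changes the shape of that chromophore. The 4 opsin genes described here are Lop1 (LOC105189783) and Lop2 (LOC105189781), a pair of long-wavelength opsins, Rh5 (LOC105185941), a blue-type opsin, and Uvop (LOC105192184), an ultraviolet opsin. They were chosen by their identifiers, are 4 of the 14001 genes in the deposited table, and are described across all 32 brain libraries of the ant Harpegnathos saltator.

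In insects the activated opsin signals through a Gq protein to phospholipase C and the TRP channels, and arrestins such as Arr1 and Arr2 end the signal. Opsin transcripts are known above all from the retina of the compound eye and from the ocelli, the simple eyes on top of the head. In the honeybee, one of the long-wavelength opsins is found in the compound eyes and the other in the ocelli. Where in the head these 4 ant genes are expressed was not measured here.

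Each library holds polyadenylated RNA from the central brain of a single ant, a day 10 worker or a day 10 gamergate, which is a worker that has become reproductive. The ants had received dicer-substrate siRNA by head injection, either against Kr-h1, which encodes a transcription factor of the juvenile hormone pathway, or a control siRNA, 10 hours before dissection. The titles name the control GFP and the protocol text names it GRP. Workers gave 8 libraries with GFP siRNA and 7 with Kr-h1 siRNA, and gamergates gave 9 and 8. No strain or mutant allele is given in the labels, all ants were injected with siRNA in the transfection reagent in vivo-jetPEI, and no uninjected ants were included. The libraries came from 2 rounds. All worker libraries and the round 3 gamergates were on sequencing run 200626 and the round 2 gamergates on run 200508, so that caste and run cannot be told apart in round 2.

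Expression is given as FPKM (fragments per kilobase and depth unit) as deposited, so levels of different genes can be set side by side per length, as far as the gene lengths used are right. The steps between low values gave whole reads for 97.8% of the 12692 genes with a value above 0 in 3 or more libraries, and recovered reads ran from 4.30 M to 13.7 M per library. Kr-h1 averaged 0.438 ± 0.187 FPKM (SD, n = 7) in knockdown workers against 0.910 ± 0.700 FPKM (SD, n = 8) in control workers, and 0.443 ± 0.291 FPKM (SD, n = 8) in knockdown gamergates against 1.83 ± 2.28 FPKM (SD, n = 9) in control gamergates. Its difference did not pass limma's test over all genes, run without the filter, in workers (log2 difference -0.48, adjusted p = 0.466) or gamergates (-1.02, adjusted p = 0.0845). Among 1056 low genes, worker GFP replicate 4 listed 35.6% at 0 and worker GFP replicate 5 listed 19.5%, against at most 9.47% in any other library. Neuronal and glial markers were present in every library: nSyb, a synaptic vesicle protein, had a median of 183.7 FPKM, and repo, a glial transcription factor, 29.4 FPKM.

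Lop2 and Lop1 were the more abundant opsins. Over the 32 libraries the median was 21.7 FPKM for Lop2 and 19.0 FPKM for Lop1, above 84.5% and 82.1% of the median levels of the 9433 genes tested. Uvop had a median of 4.58 FPKM and Rh5 of 1.67 FPKM. Lop1 was above Rh5 in all 32 libraries and Lop2 above Uvop in all 32. The neighbours in the order of FPKM were not separated: Lop1 exceeded Lop2 in 17 of 32 libraries, and Rh5 exceeded Uvop in 12 of 32. Median recovered reads, which are not divided by gene length, were 1595.5 for Lop2, 526.5 for Lop1, 298.5 for Uvop and 40.5 for Rh5. The order of the genes in FPKM thus rests on the gene lengths behind the deposited values, which were not checked. All 4 genes passed the filter, which asked for 7 or more libraries at 1 FPKM or above, Rh5 with 24 such libraries. Recovered reads ran from 129 to 7879 for Lop1, from 207 to 8850 for Lop2, from 66 to 904 for Uvop and from 6 to 450 for Rh5, so that Rh5 has the largest counting error of the 4. Lop1 and Lop2 are related genes listed as neighbours in the RefSeq assembly Hsal_v8.6, and reads that match both could have been split or dropped in the authors' counting.

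The 4 genes were among the more variable in these brains. After the groups and the batch were fitted, the residual SD on the log2(FPKM + 0.5) scale was 1.65 for Lop2, rank 31 of 9433 genes from the most variable. It was 1.02 for Uvop (rank 143), 0.92 for Lop1 (rank 193) and 0.68 for Rh5 (rank 404). The median over all genes tested was 0.24. Libraries of the same group therefore differed widely, and each contrast below is read against that spread.

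Lop1 was highest in control workers. Its lowest, median and highest values were 17.4, 99.0 and 189.9 FPKM in worker GFP and 11.6, 25.7 and 70.0 FPKM in worker Kr-h1 libraries. In gamergates they were 3.43, 17.6 and 27.1 FPKM with GFP siRNA and 6.08, 13.1 and 42.5 FPKM with Kr-h1 siRNA. The means were 101.4 ± 70.4 (SD, n = 8), 32.2 ± 20.7 (SD, n = 7), 17.3 ± 7.04 (SD, n = 9) and 16.1 ± 11.2 FPKM (SD, n = 8) in the same order. Control workers were not uniform: replicates 3 and 5 stood at 17.4 and 17.7 FPKM, inside the gamergate range, and the other 6 were between 59.7 and 189.9 FPKM.

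Rh5 followed the same order between castes at a lower level. Its lowest, median and highest values were 0.805, 4.45 and 12.9 FPKM in worker GFP, and 1.40, 1.85 and 3.18 FPKM in worker Kr-h1 libraries. In gamergates they were 0.256, 1.03 and 1.86 FPKM with GFP siRNA and 0.673, 1.42 and 4.38 FPKM with Kr-h1 siRNA. Worker GFP replicate 3, one of the libraries low in Lop1, was also the lowest control worker in Rh5.

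Lop2 ranged from low to high values in every group. Its lowest, median and highest values were 4.04, 9.17 and 56.99 FPKM in worker GFP, and 2.95, 37.8 and 50.1 FPKM in worker Kr-h1 libraries. They were 2.25, 30.7 and 48.6 FPKM in gamergate GFP, and 2.44, 14.6 and 40.9 FPKM in gamergate Kr-h1 libraries. Sorted by Lop2, the libraries had their widest gap on the log2 scale between 6.26 and 11.3 FPKM, with 13 libraries below it and 19 above. The libraries above the gap were 4 of 8 worker GFP, 4 of 7 worker Kr-h1, 7 of 9 gamergate GFP and 4 of 8 gamergate Kr-h1. Libraries on both sides of the gap thus occurred in all 4 groups and, as the points by round show, in both rounds.

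Uvop spread in a similar way at a lower level. Its lowest, median and highest values were 1.71, 3.84 and 11.6 FPKM in worker GFP, and 1.15, 8.19 and 10.9 FPKM in worker Kr-h1 libraries. In gamergates they were 1.53, 6.44 and 10.9 FPKM with GFP siRNA and 1.72, 3.96 and 9.19 FPKM with Kr-h1 siRNA. The ranges of the 4 groups overlapped nearly in full for Uvop and Lop2.

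**Figure D1:**
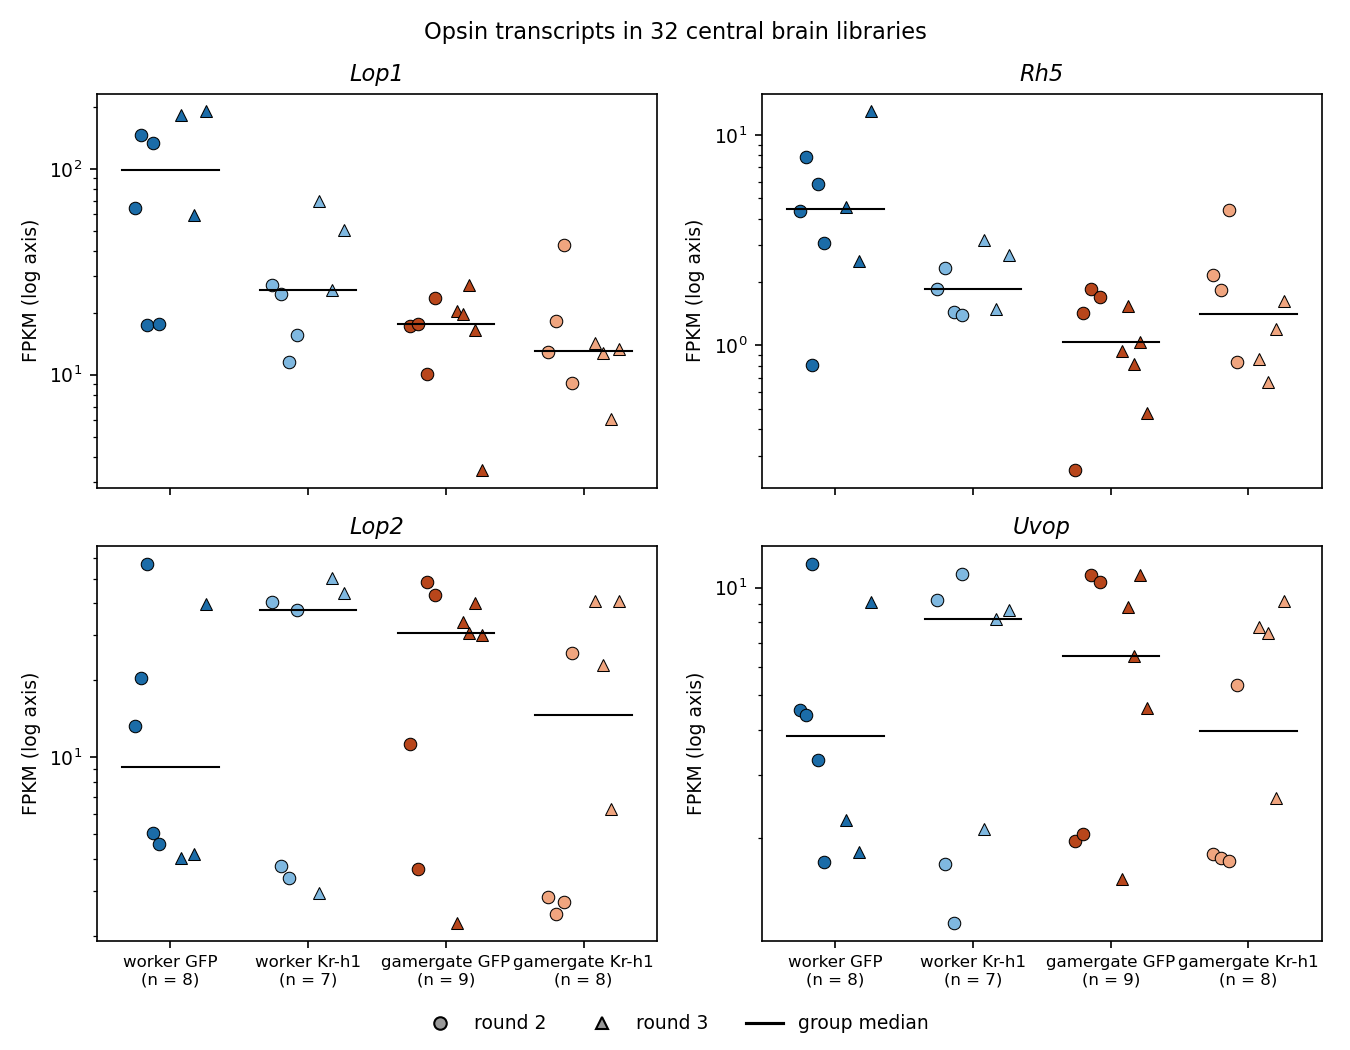
FPKM of the 4 opsin genes in each of the 32 libraries on log axes, by group, with circles for round 2, triangles for round 3 and a line at the group median. Lop1 and Rh5 lie highest in worker GFP libraries, with medians of 99.0 and 4.45 FPKM, while Lop2 and Uvop take low and high values in every group.

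The sum of the 4 opsins had a median of 117.2 FPKM in worker GFP, 78.2 in worker Kr-h1, 64.1 in gamergate GFP and 42.3 in gamergate Kr-h1 libraries. Lop1 made up a median of 78.6% of that sum in worker GFP, 47.6% in worker Kr-h1, 30.9% in gamergate GFP and 33.4% in gamergate Kr-h1 libraries. Within every group the share was wide, from 20.02% to 94.4% among control workers and from 8.90% to 81.2% among control gamergates. The size of these shares also rests on the unchecked gene lengths.

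The comparison of gamergates with workers under GFP siRNA asks how the castes differ in the absence of knockdown. Lop1 and Rh5 were lower in gamergates. In round 3, where both castes were on the same run, Lop1 stood at 183.3, 59.7 and 189.9 FPKM in the 3 workers and at 20.4, 19.8, 27.1, 16.4 and 3.43 FPKM in the 5 gamergates. Rh5 stood at 4.55, 2.53 and 12.9 FPKM in those workers and at 0.938, 1.55, 0.815, 1.03 and 0.476 FPKM in those gamergates. For both genes every round 3 gamergate lay below every round 3 worker, which held in the same direction for 7.00% of the 9433 genes tested. The mean difference on the log2(FPKM + 0.5) scale was -3.09 for Lop1 and -2.05 for Rh5 (exact two-sided permutation p = 0.0179 for each, n = 8, unadjusted and the smallest that 56 splits allow).

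Because round 2 gamergates and workers are on different levels of the batch term, the caste contrast in the fit rests on round 3, and round 2 libraries enter it only through the knockdown effects and the spread. In that fit, limma called 2 of the 4 opsins lower in gamergates and none higher, at an adjusted p under 0.05. Of all genes tested, 0.594% were called lower, 0.731% higher and 1.33% in either direction. The log2 difference was -3.18 ± 0.54 for Lop1 (SE; 95% interval -4.28 to -2.07, limma adjusted p = 0.00461) and -2.11 ± 0.40 for Rh5 (SE; interval -2.93 to -1.28, limma adjusted p = 0.00922). All 9 gamergate GFP libraries lay below the worker GFP median for both genes, but 4 lay below every worker library for Lop1 and 2 for Rh5. Within round 2, where caste and run coincide, the difference was -1.65 ± 0.59 for Lop1 and -1.31 ± 0.47 for Rh5 (SE), smaller than in round 3. The call for Rh5 was lost without worker GFP replicate 8, its highest library (-1.73, limma adjusted p = 0.0576), and both calls were lost when only the groups compared entered the fit (limma adjusted p = 0.222 for Lop1 and 0.325 for Rh5).

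Lop2 and Uvop were not called. Their differences were 1.17 ± 0.97 (SE; interval -0.81 to 3.14, limma adjusted p = 0.481) and 0.62 ± 0.60 (SE; interval -0.61 to 1.84, limma adjusted p = 0.554), both wide intervals that include changes in either direction. As ratios within a library, Lop1 to Uvop and Rh5 to Uvop were lower in round 3 control gamergates, by log2 differences of -3.69 and -2.66 (exact permutation p = 0.0179 for each, n = 8). Of 24 such ratio tests over 6 pairs of opsins and 4 comparisons, 0 passed Benjamini-Hochberg adjustment (lowest adjusted p = 0.214), and 3 had an unadjusted p under 0.05. All 3 were caste tests at the smallest exact permutation p their splits allow, 0.0179 with 56 splits and 0.0286 with 35. A single caste ratio at that smallest p cannot pass adjustment over 24 tests, so the 0 does not show that the caste ratios are alike. The Lop2 to Uvop ratio differed by 0.51 between round 3 control gamergates and control workers (exact permutation p = 0.429, n = 8).

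Markers of other tissues are given beside these results. The photoreceptor and phototransduction list had 16 of 29 members measured, and its summed level ran from 239.2 to 927.3 FPKM in worker GFP and from 223.2 to 961.5 FPKM in gamergate GFP libraries, overlapping nearly in full. The sum mostly follows Arr2, with a median of 297.3 FPKM over all libraries against at most 64.9 FPKM for any other member. Of its 15 tested members, 14 lay above 0 in the fit and 0 were called. The muscle list had 9 of 17 members measured and ran from 78.4 to 285.0 FPKM in worker GFP and from 67.5 to 114.9 FPKM in gamergate GFP libraries. In the fit 7 of its 8 tested members lay below 0, the direction of Lop1 and Rh5, with a median log2 difference of -0.62 and 0 called. The summed fat body list (2 of 10 measured) ran from 136.9 to 214.7 FPKM in worker GFP and from 179.0 to 406.3 FPKM in gamergate GFP libraries, and the haemocyte list (3 of 11 measured) from 2.33 to 4.28 FPKM and from 4.01 to 11.4 FPKM. All 5 of their members lay above 0 in the fit and 0 were called, beside 1.33% of all genes called in either direction. Of the glial list, 4 of 9 members were called higher in gamergates, beside 0.731% of all genes. No measured member of these lists was at 0 in every library. Their part in the lower Lop1 and Rh5 levels was not tested, and in tissue RNA, fewer cells of a type and less RNA per cell cannot be told apart.

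The same comparison under Kr-h1 siRNA uses other libraries in its groups but the same fit. In round 3, Lop1 was at 70.0, 25.7 and 50.3 FPKM in the 3 workers and at 14.3, 12.7, 6.08 and 13.3 FPKM in the 4 gamergates, again without overlap. This held in the same direction for 6.73% of all genes tested (log2 difference -1.98, exact permutation p = 0.0286, n = 7, the smallest that 35 splits allow). In the fit with the batch term, whose caste contrast again rests on round 3, the difference was -1.86 ± 0.56 (SE; interval -3.002 to -0.72) and missed the threshold over all genes (limma adjusted p = 0.121). In round 2 it was -0.10 ± 0.63 (SE). For Rh5 the difference was -0.80 ± 0.42 (SE; limma adjusted p = 0.362), for Lop2 0.05 ± 1.00 (SE; 0.986) and for Uvop 0.10 ± 0.62 (SE; 0.956). limma called 0 of the 4 opsins here, beside 0.17% of all genes in either direction, 0.053% higher and 0.117% lower.

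The knockdown comparison in workers asks whether opsin transcripts differ 10 hours after Kr-h1 siRNA. No opsin was called. Lop1 differed by -1.47 ± 0.45 on the log2(FPKM + 0.5) scale (SE; interval -2.39 to -0.56, limma unadjusted p = 0.00252, adjusted p = 0.161) and Rh5 by -0.95 ± 0.33 (SE; interval -1.64 to -0.27, limma unadjusted p = 0.0078, adjusted p = 0.194). limma called 0 of 9433 genes in this comparison, or 0%, and at most 5 under any other setting tried, while 1618 genes, or 17.2%, had an unadjusted p under 0.05. Of all genes, 8.51% were lower at that unadjusted level, as were 2 of the 4 opsins. With siRNA labels permuted within rounds, the exact p was 0.021 for Lop1 and 0.0365 for Rh5 (n = 15, unadjusted).

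The worker groups overlapped for both genes. For Lop1, 4 of 8 control workers lay above every knockdown worker and 2 of 7 knockdown workers below every control. For Rh5, 5 of 8 control workers lay above every knockdown worker, and worker GFP replicate 3 lay below them all. The Lop1 difference was -1.46 in round 2 (exact permutation p = 0.127, n = 9) and -1.496 in round 3 (exact permutation p = 0.20, n = 6, where 20 splits cannot give less than 0.1). Lop2 differed by 0.37 ± 0.80 (SE; interval -1.27 to 2.00, limma adjusted p = 0.827) and Uvop by 0.18 ± 0.50 (SE; interval -0.83 to 1.19, limma adjusted p = 0.863). Both were on the other side of 0 in round 2 alone, at -0.10 and -0.09, and without worker GFP replicates 4 and 5, at -0.04 and -0.03. The summed muscle list had a median of 111.7 FPKM in control workers and 73.2 FPKM in knockdown workers, with 7 of 8 tested members below 0 and 0 called, and its part in the Lop1 and Rh5 values was not tested.

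In gamergates no opsin was called after Kr-h1 siRNA, where 0.721% of all genes were called in either direction, 0.318% higher and 0.403% lower. The differences were -0.16 ± 0.42 for Lop1 (SE; interval -1.02 to 0.70, limma adjusted p = 0.826) and 0.35 ± 0.31 for Rh5 (SE; interval -0.29 to 0.99, adjusted p = 0.47). They were -0.75 ± 0.75 for Lop2 (SE; interval -2.28 to 0.79, adjusted p = 0.524) and -0.34 ± 0.46 for Uvop (SE; interval -1.29 to 0.61, adjusted p = 0.655). For Lop2 and Uvop the rounds differed in sign: round 2 gave -1.75 and -0.88, round 3 gave 0.15 and 0.15 (exact permutation p from 0.171 to 0.873, n = 8 and n = 9). In round 2, 1 of 4 gamergate Kr-h1 libraries lay above the gap in Lop2, against 3 of 4 gamergate GFP libraries.

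The last comparison sets the knockdown effect of gamergates against that of workers, and it shares all libraries with the comparisons above. Rh5 passed, with a knockdown effect 1.30 ± 0.46 higher in gamergates than in workers (SE; interval 0.37 to 2.24, limma adjusted p = 0.0492). 1 of 4 opsins was thus called higher, beside 9.47% of all genes called higher and 16.5% in either direction. The call was lost in 25 of 32 fits that each left out 1 library (limma adjusted p from 0.026 to 0.082 over the 32) and in 13 of 17 other settings. In the same comparison 7 of 8 tested muscle genes lay above 0, with a median log2 difference of 1.03 and 1 called lower (Zasp66), beside 7.01% of all genes, and their rho with Rh5 over 32 libraries was 0.05 to 0.59. The part of muscle in the Rh5 value was not tested. Lop1 had a difference of nearly the same size and a wider interval, 1.31 ± 0.61 (SE; interval 0.06 to 2.57, limma adjusted p = 0.124). Lop2 and Uvop had -1.12 ± 1.10 (SE; limma adjusted p = 0.479) and -0.52 ± 0.68 (SE; adjusted p = 0.605).

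**Figure D2:**
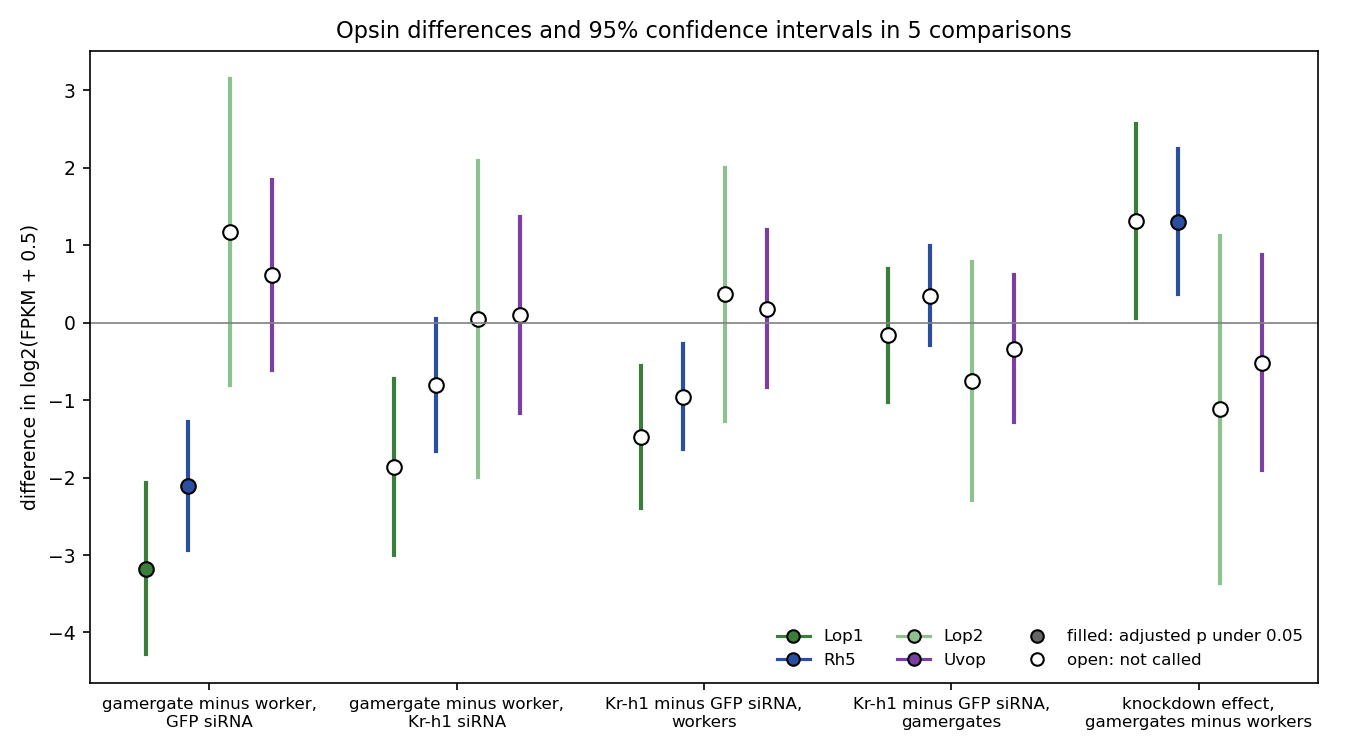
Differences in log2(FPKM + 0.5) of the 4 opsins in 5 comparisons from the limma fit to all 32 libraries, with 95% confidence intervals as bars and filled points where the adjusted p was under 0.05. The filled points are Lop1 and Rh5 for caste under GFP siRNA, at -3.18 and -2.11, and Rh5 for the difference of the knockdown effect, at 1.30.

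The opsins varied in pairs from brain to brain. Over the 32 libraries, Spearman's rho was 0.728 between Lop1 and Rh5 and 0.907 between Lop2 and Uvop, and it was -0.125 between Lop1 and Lop2. These coefficients describe libraries that share castes, rounds and depth. Rh5 was the gene most like Lop1 of the 9432 others tested and Lop1 the gene most like Rh5. Uvop ranked 2 for Lop2 and Lop2 ranked 5 for Uvop. The Lop2 to Uvop ratio stayed between 1.39 and 6.51 over all libraries, while the Lop1 to Lop2 ratio ran from 0.114 to 45.3.

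For Lop1 and Rh5 the relation was seen in workers. Across the 15 worker libraries Pearson's r of the log2 values was 0.872 (permutation adjusted p = 8e-05) and Spearman's rho 0.904 (permutation adjusted p = 6e-05). It was 0.848 without the 2 libraries farthest from the Lop1 median, 0.898 in round 2 and 0.881 in round 3, and 0.828 for deviations from the means of group and round. Across the 17 gamergate libraries r was 0.456 (permutation adjusted p = 0.20) and rho 0.27 (adjusted p = 0.783). The difference between castes in this relation was not tested, and the gamergate range of both genes was narrower and rested on few Rh5 reads, 6 to 111 per library. Adjustment was over the 12 relations computed, 6 pairs in each caste.

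The relation of Lop2 with Uvop is also given on each side of the widest gap in Lop2, a split made after seeing the data. Any sorted values have a widest gap, and whether Lop2 has 2 separate levels was not tested. Among the 19 libraries above the gap r was 0.883 and rho 0.742 (permutation p = 1e-05, the smallest the resamples allow, and 0.00038), and r was 0.787 without the 2 farthest libraries. Among the 13 below it r was 0.592 (permutation p = 0.0327) and rho 0.538 (permutation p = 0.0611). Without the 2 farthest libraries r fell to 0.457 and rho to 0.29, so the relation below the gap was weaker without them. Their removal also narrows the range of Lop2.

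**Figure D3:**
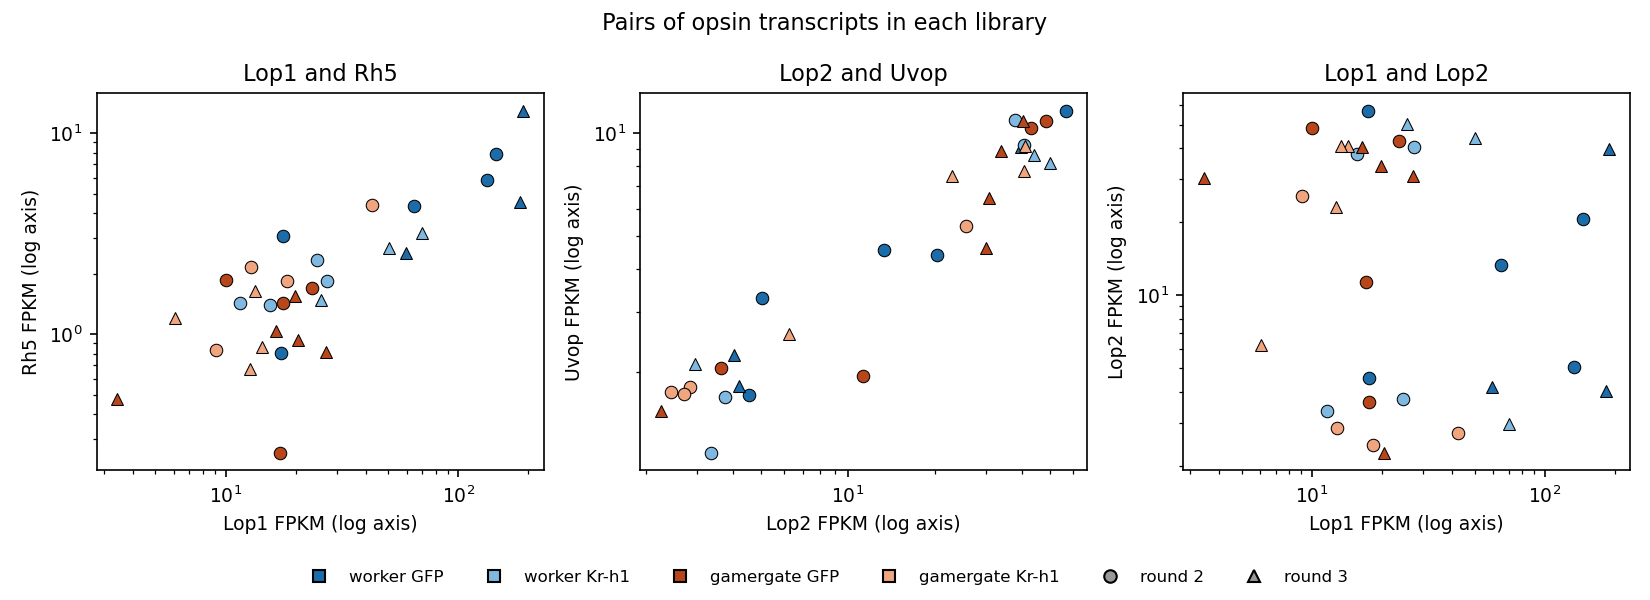
Each point is 1 library, placed by the FPKM of 2 opsins on log axes, coloured by group, with circles for round 2 and triangles for round 3. Lop1 with Rh5 (Spearman's rho 0.728) and Lop2 with Uvop (0.907) run along a diagonal over the 32 libraries, and Lop1 with Lop2 (-0.125) does not.

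The genes that varied most like each opsin differed between the pairs. The other opsins are left out of the genes named and counted here. For Lop2 the 5 named genes with the highest rho over 32 libraries were Arr2 (0.924), an arrestin, ninaB (0.895), a carotenoid oxygenase needed to make the chromophore, swi2 (0.891), Culd (0.890) and chp (0.869), the photoreceptor cell surface protein chaoptin. For Uvop they were Arr2 (0.946), swi2 (0.887), ninaB (0.875), prom (0.863), a prominin, and ninaC (0.852), a photoreceptor myosin. These roles are known from the fruit fly. Besides the opsins, 27 genes reached a rho of 0.8 with Lop2, or 0.286% of the 9432 others tested, and 24 with Uvop, or 0.254%.

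No gene reached 0.8 with Lop1 or Rh5 over the 32 libraries. The named genes most like Lop1 were stum (0.599), P5CS (0.596), Skp2 (0.576), mol (0.562) and lost (0.556). Those most like Rh5 were polo (0.717), l(3)87Df (0.687), the ribosomal protein gene RpL37-1 (0.639), the neuropeptide gene NPF (0.613) and RpL28 (0.612). The castes did not always share these values. With Rh5, NPF had a rho of -0.09 in the 15 workers and 0.85 in the 17 gamergates, and l(3)87Df had 0.37 and 0.84. With Lop1, Skp2 had 0.75 and 0.04, and lost had 0.63 and -0.07. The castes were closer for polo with Rh5 (0.625 and 0.56) and for P5CS with Lop1 (0.54 and 0.46). Of the 10 genes most like each opsin, the other opsins left out, 6 had no symbol for Lop1, 7 for Rh5, 6 for Lop2 and 6 for Uvop.

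Of the photoreceptor and phototransduction list, 15 of the 16 measured members passed the filter. With Lop2, 7 of the 15 had a rho of 0.853 to 0.924, and the other 8 of -0.18 to 0.22. The 7 were Arr1, Arr2, ninaC, ninaB, chp, Gbeta76C, a G protein subunit of the fly eye, and stops. The same 7 had 0.813 to 0.946 with Uvop. Those that did not follow were Galphaq, Ggamma30A, rdgA, rdgB, inaE, Calx, trp, a light-activated channel, and ort, a histamine receptor of the neurons that photoreceptors contact. With Lop1 the highest rho in the list was 0.10 and with Rh5 0.18. Arr2 ran from 25.7 to 646.8 FPKM and Arr1 from 1.29 to 98.7 FPKM, while Galphaq stayed between 33.3 and 69.0 FPKM.

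**Figure D4:**
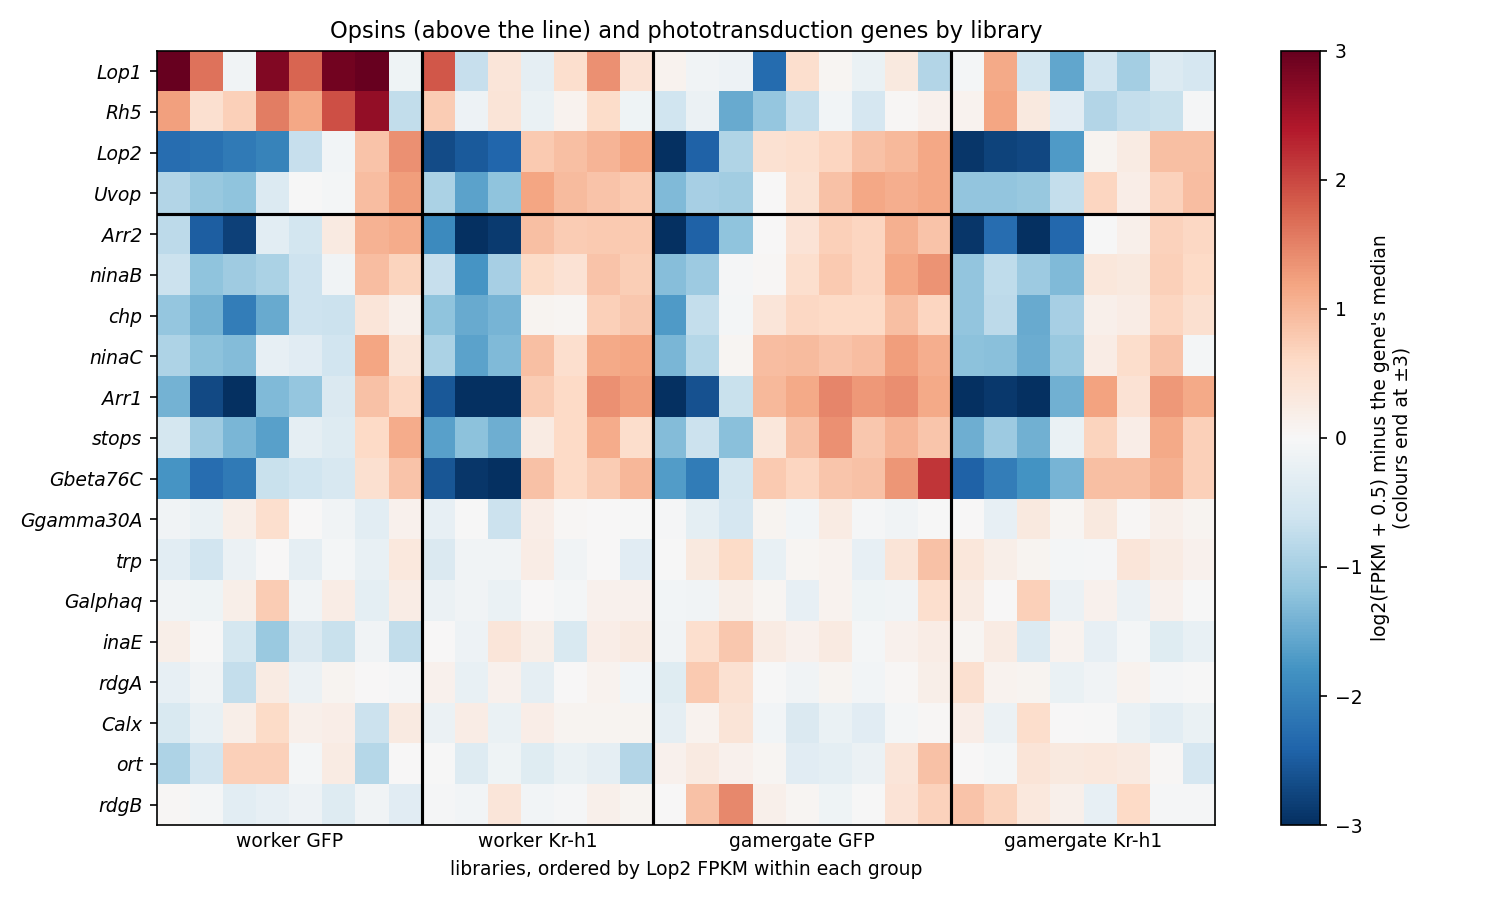
Each column is 1 library, grouped and then ordered by Lop2 FPKM, and each row is a gene, coloured by log2(FPKM + 0.5) minus the median of that gene over 32 libraries. The 7 genes from Arr2 to Gbeta76C change colour together with Lop2 and Uvop in every group, while Lop1, Rh5 and the 8 lower rows do not.

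In control gamergates against control workers 0 of 15 members passed the test, beside 1.33% of all genes. Of the 15, 14 lay above 0, with a median log2 difference of 0.40 against -0.011 over all genes. After Kr-h1 siRNA the medians were 0.09 in workers and -0.36 in gamergates, with 0 called in either, beside 0% and 0.721% of all genes. In gamergates against workers under Kr-h1 siRNA the median was 0.01 with 0 called, beside 0.17%. At such low shares, 0 of 15 does not set the list apart from other genes. In the difference of the knockdown effect, 1 of 15 was called lower, the lipase gene inaE (-0.83 ± 0.18, SE; limma adjusted p = 0.0161), beside 7.01% of all genes. The lowest summed level of the list in a group was 217.7 to 270.4 FPKM and the highest 798.1 to 961.5 FPKM, so that all 4 groups held libraries near both ends of this sum. The sum mostly follows Arr2 and does not describe the other members.

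Of the eye development list, 8 of 15 members were measured and 7 tested. sev, a receptor tyrosine kinase of photoreceptor fate in the fly, was called higher in control gamergates than in control workers (1.03 ± 0.24, SE; limma adjusted p = 0.0326), the only call of the 7, beside 0.731% of all genes called higher. After Kr-h1 siRNA in gamergates, sev (-0.94, limma adjusted p = 0.0252) and the homeobox gene Optix (-0.62, limma adjusted p = 0.0451) were called lower. Beside these 2 of 7, the share of all genes called lower was 0.403%. With 1 library left out, the genes called in that comparison ran from 0 to 866, and sev and Optix were not followed through those fits. In the difference of the knockdown effect Optix, eya and sev were called lower, 3 of 7, beside 7.01% of all genes. In the caste comparison sev was thus called in the other direction from Lop1 and Rh5. Of the eye pigment list 2 of 7 members were measured, cn and Hn, and neither passed the filter.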

How the data were processed

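RNA was measured in 32 libraries of single Harpegnathos saltator brains, from strand-specific polyA libraries per the labels' protocols. The deposited values are FPKM per gene, made by the authors. The submitters' processing notes name bcl2fastq, STAR, featureCounts and DESeq2 without versions. In the sources used here the genome build, the annotation and whether counting used strand are not stated, and coordinates are left out. Names came from the RefSeq assembly Hsal_v8.6 (13989 of 14001 identifiers matched). No sequence is printed, because none was given for these genes.

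FPKM values were tested as log2(FPKM + 0.5) with limma 3.58.1 (R 4.3.3). The 9433 genes that reached 1 FPKM in 7 or more libraries were fitted together, with a coefficient for each of the 4 groups, round and run as a batch of 3 levels, and an eBayes trend. A call needs an adjusted p (Benjamini-Hochberg, over all genes) under 0.05. Differences on this scale understate the change of low genes, Rh5 above all. Single values were compared by exact permutation within rounds (caste in round 3 only), in Python 3.11.15 with SciPy 1.17.1, and correlations with 100000 permutations. The fits were tested on simulated data.

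Whole reads were recovered from the FPKM steps within 0.02 reads. A step was found for 12408 of 12692 genes, and for 0.6% with library scales jittered. Recovered reads had a median of 7.66 M. No pair of libraries was identical, and the lowest and highest Spearman correlation of libraries in 1 group were 0.932 and 0.985.

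The opsins and marker lists were chosen with earlier results of these data known. Named besides the opsins are Kr-h1, the 5 genes with symbols most like each opsin, and up to 4 called members of the eye lists per comparison. Muscle, glia, neuron, fat body and haemocyte lists were carried as markers of other tissue. Alternatives covered the pseudocount, filter, scaling, batch term, libraries, replicate block, variance model, gene span trend and voom on recovered reads.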

Additional observations from a re-analysis of the deposited data

Results flagged for a closer look

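Gamergate Kr-h1 replicate 3 stood apart from the other 7 libraries of its group in Lop1, at 42.5 FPKM against 6.08 to 18.3 FPKM, and in Rh5, at 4.38 FPKM against 0.673 to 2.15 FPKM. It is a round 2 library on run 200508. Its Lop2 was 2.71 FPKM and its Uvop 1.72 FPKM, both near the low end of the group. Of the 16 combinations of gene and group checked for a distant library, 2 were flagged, both for this library and in genes that varied together over the 32 libraries. The cutoff of the check is nominally set to flag 1 in 20 groups by chance, and its rate on these FPKM values was not measured.

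The knockdown effect on Rh5 differed between castes by 1.30 on the log2(FPKM + 0.5) scale, higher in gamergates, by limma's test of the difference itself (adjusted p = 0.0492). Of all genes, 16.5% were called in that test. The Rh5 call was lost in 25 of 32 fits that each left out 1 library and in 13 of 17 other settings. Rh5 was not called for knockdown within either caste.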

How the results depend on the processing

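The numbers of opsins called moved as follows. In the difference of the knockdown effect, the 1 call (Rh5) became 0 with a pseudocount of 0.1, no filter, no batch term, round only, the replicate block (Rh5 1.20, adjusted p = 0.109), either round alone, without worker GFP 4 and 5, array weights, robust eBayes, no trend, voom and the span trend removed, and 0 to 1 with 1 library left out. For caste under GFP siRNA, 2 became 0 with only the groups compared and 1 to 2 with 1 library left out. For caste under Kr-h1 siRNA, 0 became 1 (Lop1) with array weights (-1.85, limma adjusted p = 0.0318). What moved these counts was not tested. The exact permutation p was under 0.05 for Lop1 in that comparison and for Lop1 and Rh5 for knockdown in workers. These p values are unadjusted and so are not calls, and limma's unadjusted p was under 0.05 for the same 3 differences. Knockdown in gamergates stayed at 0 opsins throughout. The ratio tests also stayed at 0, but their caste tests allow too few splits for a single ratio to pass.

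Values that changed sign were all uncalled. For knockdown in gamergates, Lop1 was 0.0863 in round 2 alone, and Lop2 and Uvop were 0.15 in round 3 alone. For knockdown in workers, Lop2 was -0.10 and Uvop -0.0944 in round 2 alone, and -0.0413 and -0.0341 without worker GFP 4 and 5. For caste under Kr-h1 siRNA, Lop2 was -0.47 without a batch term, -0.52 with round only, -0.0460 with the replicate block, -1.24 in round 2 alone and -0.0036 with the span trend removed. In the same comparison Uvop was -0.21, -0.24 and -0.65 without a batch term, with round only and in round 2 alone, and Rh5 was 0.18 in round 2 alone. With 1 library left out, Lop2 there ran from -0.61 to 0.57, Uvop from -0.20 to 0.35, the Lop2 to Uvop log2 ratio from -0.64 to 0.43 and the Rh5 to Lop2 ratio from -2.02 to 0.36. Uvop for knockdown in workers ran from -0.0420 to 0.47, and the Lop1 to Uvop ratio for knockdown in gamergates from -0.14 to 0.47.

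Lop1 for caste under GFP siRNA ran from -3.51 to -2.83 with 1 library left out (limma adjusted p from 0.00184 to 0.0259) and from -3.27 to -1.65 under the other settings. All-gene counts moved more with 1 library left out: 26 to 231 for caste under GFP siRNA (125 with all libraries), 2 to 71 under Kr-h1 siRNA (16), 0 to 866 for knockdown in gamergates (68) and 399 to 2191 for the difference (1554). Same-numbered deviations correlated from -0.406 to 0.438. They were not set against those of differently numbered libraries, so whether replicate numbers pair the samples was not tested. Worker replicate 5 is a round 2 library with GFP siRNA and a round 3 library with Kr-h1 siRNA. The replicate block changed no opsin call but that of Rh5. An exact permutation test was not run for the difference, and the fit to only the groups compared is, for it, the fit to all libraries. Depth limits Rh5 most, with 6 reads in the lowest library.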

Other observations

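The 2 fat body genes measured (apolpp and FASN1) and the 3 haemocyte genes (Hml, Ppn and Pxn) had 0 members called in each caste comparison and each knockdown comparison. The share of all genes called in those comparisons was only 0% to 1.33%. In the difference of the knockdown effect 1 of each list was called lower, where 7.01% of all genes were called lower. The rho of these fat body and haemocyte genes with the 4 opsins over 32 libraries ran from -0.34 to 0.08. The 12 neuron genes had 0 called in the same 4 comparisons and 1 lower in the difference of the knockdown effect, beside the same 7.01%. The 8 muscle genes had a rho of 0.07 to 0.43 with Lop1, of 0.05 to 0.59 with Rh5 and of -0.30 to -0.12 with Lop2. For the 9 glia genes it was -0.55 to 0.33, -0.54 to 0.29 and -0.27 to 0.13 in the same order. For the 12 neuron genes it was -0.43 to 0.10, -0.26 to 0.25 and -0.35 to 0.02. Of the 9 glia genes, 2 were called lower in the difference of the knockdown effect, beside the same 7.01%.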
